A study of Mus musculus with 18 samples.

Results

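Il1r1, Spp1, Plau, Cacna1i and Mgll are 5 of the 28096 genes counted in RNASeq libraries of mouse splenic B cells. They were chosen because their mRNA differed greatly between cells stimulated with anti-IgM and cells stimulated with LPS, so their differences between stimuli are given as a description without a test. Tests are given for what the choice did not use, the difference between genotypes. The 18 libraries came from B cells purified from the spleens of C57BL/6 N mice aged 8 weeks or more, 3 libraries for each of 6 groups. Wild-type (WT) cells and Ubqln1-/- (KO) cells, which lack exon 2 of Ubqln1 in every tissue from the germ line on, were each kept resting, given F(ab)2 anti-IgM at 10 μg/mL, or given K12 E. coli LPS at 20 μg/mL, and all were harvested at 4 hr. All 6 groups were cultured in vitro and replicate wells were pooled before RNA was purified, so each library stands for 1 experiment. The p-values measure the spread between these libraries, and whether libraries of a group came from separate mice is not given in the sources used here.

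Anti-IgM crosslinks the B cell receptor (BCR), which activates SYK, calcium entry, ERK, PI3K and NF-kB and brings on immediate early genes of the EGR and AP-1 families. LPS is sensed by TLR4, which signals through MyD88 and TRIF to NF-kB and interferon regulatory factors. The 5 genes have unrelated products. Il1r1 encodes the signaling receptor for IL-1α and IL-1β, and Spp1 encodes osteopontin, a secreted phosphoprotein that binds integrins and CD44. Plau encodes urokinase, a secreted protease that converts plasminogen to plasmin. Cacna1i encodes the pore subunit of the T-type calcium channel Cav3.3. Mgll encodes monoacylglycerol lipase, which splits monoacylglycerols, among them the endocannabinoid 2-arachidonoylglycerol, into glycerol and a free fatty acid.

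The libraries held 15368941 to 41072854 counts each. Each WT library with LPS was larger than each KO library with LPS. Ubqln1 was at 54.2 to 81.1 RPKM (read counts normalized for exon length and library size) in WT libraries and at 21.6 to 30.3 RPKM in KO libraries, and reads from the remaining exons were still counted in KO cells. The summed CPM (counts normalized for library size alone) of 8 B cell markers were 7280 to 9190 in resting cells and with LPS and 2860 to 3530 with anti-IgM, and all 8 were detected in each group. The summed CPM of 8 T cell markers was 39.4 to 71.9, mostly from Cd247. That of 8 markers of stroma and endothelium was 29.8 to 268, mostly from Pecam1. Within these lists Cd3e reached at most 3 counts and Col1a1 at most 5 counts in any library. In bulk libraries of this kind, fewer cells of a type and less RNA per cell cannot be told apart.

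Promoter sequence is shown for 4 of the 5 genes, since the data describe mRNA whose level differed between 2 stimuli that use partly different transcription factors. The 250 bases before a start site are printed 5′ to 3′ on the plus strand, from RefSeq (GRCm38.p6). For Spp1, Cacna1i and Mgll the window ends just before the first base of the gene as annotated, while both start sites listed for Il1r1 lie inside its annotated span. Capitals mark letters of the NF-kB form (GGG, any 5 bases, CC), the form of an interferon-stimulated response element (ISRE; GAAA, any 2 bases, GAAA), the EGR form GCGNGGGCG or the AP-1 form TGANTCA, on either strand.

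Spp1, first start site, chr5:104434861-104435110: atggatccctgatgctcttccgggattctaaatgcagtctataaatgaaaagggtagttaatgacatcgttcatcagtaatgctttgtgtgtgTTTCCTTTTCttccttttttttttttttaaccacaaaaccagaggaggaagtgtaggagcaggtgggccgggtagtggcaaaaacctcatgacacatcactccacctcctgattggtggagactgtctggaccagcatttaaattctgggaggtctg
Il1r1, first start site, chr1:40224830-40225079: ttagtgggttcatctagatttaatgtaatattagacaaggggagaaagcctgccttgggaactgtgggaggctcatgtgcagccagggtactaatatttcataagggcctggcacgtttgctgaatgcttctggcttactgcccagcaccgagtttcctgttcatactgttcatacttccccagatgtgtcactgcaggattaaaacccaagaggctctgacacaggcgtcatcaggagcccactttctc
Cacna1i, chr15:80286988-80287237: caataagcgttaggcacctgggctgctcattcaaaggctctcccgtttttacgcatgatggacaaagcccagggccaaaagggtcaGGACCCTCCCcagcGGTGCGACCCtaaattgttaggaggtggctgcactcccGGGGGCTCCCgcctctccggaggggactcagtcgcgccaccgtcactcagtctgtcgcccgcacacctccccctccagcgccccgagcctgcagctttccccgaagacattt
Mgll, first start site, chr6:88724162-88724411: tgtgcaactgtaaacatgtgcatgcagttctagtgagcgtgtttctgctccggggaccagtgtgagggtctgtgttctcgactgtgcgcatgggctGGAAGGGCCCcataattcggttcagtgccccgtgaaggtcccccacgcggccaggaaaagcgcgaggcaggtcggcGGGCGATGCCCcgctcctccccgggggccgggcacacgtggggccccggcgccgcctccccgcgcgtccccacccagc

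Over windows of 300 bases, which add 50 bases after the start, the Cacna1i window held 3 matches to the NF-kB form, beginning 164, 150 and 112 bases before the start. The first Mgll window held 5, of which those at 78 and 77 bases before the start overlap and 2 more begin at or just after the start. The first windows of Spp1 and Il1r1 held none, and the second Il1r1 window held 1, at 232 bases before its start. This loose form occurred in 50.8% of 32851 promoter windows, so a match or its absence is a description of the letters only. Spp1 held 1 ISRE form, beginning 157 bases before the start, which occurred in 3.44% of windows. The EGR form (5.55% of windows) was present in both Mgll windows and in the second Il1r1 window, the E-box CACGTG (7.15%) in the first Mgll window at 44 bases before the start, and the AP-1 form (7.81%) in none of the 7 windows of the 4 genes. The NFAT form GGAAAN, present in 61.2% of windows, was found in 5 of the 7, and its match in the first Spp1 window begins at 158 bases before the start and overlaps the ISRE form.

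Il1r1, Spp1 and Plau mRNA were high with anti-IgM, Mgll mRNA was high with LPS, and Cacna1i mRNA was highest in resting cells. The pattern was alike in both genotypes. Between LPS and anti-IgM in WT cells, the log2 fold change was −5.81 ± 0.53 (SE) for Il1r1, −6.21 ± 0.21 for Spp1 and −4.73 ± 0.40 for Plau, and 2.82 ± 0.37 for Cacna1i and 3.21 ± 0.28 for Mgll. In KO cells the values were −6.09 ± 0.60, −6.74 ± 0.22, −4.95 ± 0.43, 2.84 ± 0.36 and 3.18 ± 0.28 in the same order. Across the 14161 genes tested, 9.42% in WT and 8.73% in KO cells passed a call in this comparison (edgeR quasi-likelihood test, Benjamini-Hochberg adjusted p under 0.05 and a log2 fold change beyond 1 in either direction), and since the 5 genes were chosen on this comparison their values in it are a description only. Against resting cells the same call was passed by 20.6% of genes in WT and 20.3% in KO cells with anti-IgM, and by 15.8% and 15.9% with LPS.

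**Figure D1:**
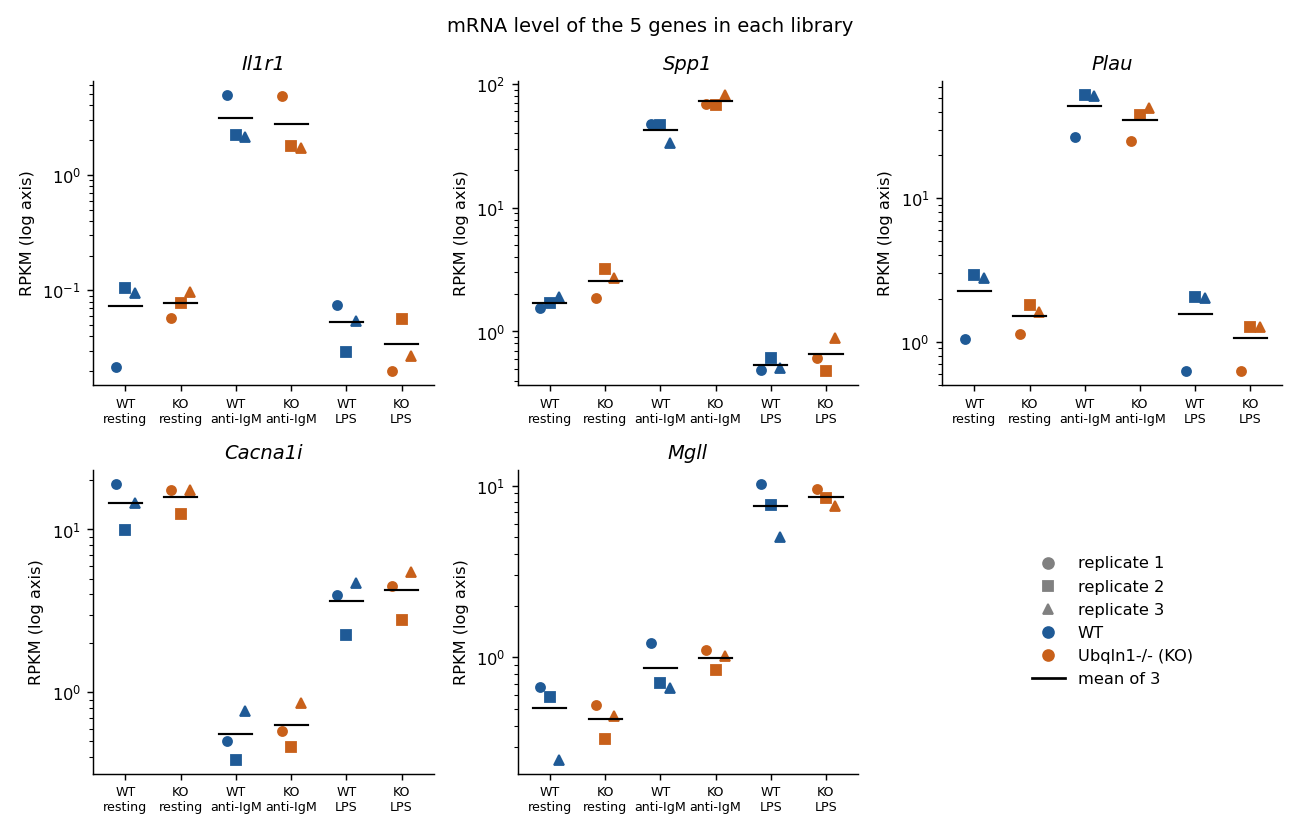
RPKM on a log axis in each of the 18 libraries for the 5 genes, by genotype and condition, with point shapes for replicate numbers and a line at the mean of 3. Il1r1, Spp1 and Plau stand highest with anti-IgM, Mgll with LPS and Cacna1i in resting cells, and Spp1 with anti-IgM lies at 33.2 to 47.7 RPKM in WT and 67.2 to 81.7 RPKM in KO cells.

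Ranks are given as part of that description. Ranked by the log2 fold change of LPS against anti-IgM, Spp1 was first from the anti-IgM end in both genotypes, Il1r1 stood at rank 3 in WT and 5 in KO cells, and Plau at rank 10 in both. From the LPS end, Mgll stood at rank 76 in WT and 58 in KO cells and Cacna1i at 116 and 77. Directly next to Plau stood Sv2b with −4.76 and Bex1 with −4.71, and next to Mgll stood Socs3 with 3.23 and Xaf1 with 3.20. Against resting cells, Il1r1 ranked 2 and Spp1 3 among increases with anti-IgM in WT cells, with Megf10 at rank 1, Cacna1i ranked 2 among decreases, behind Efna1, and Mgll ranked 19 among increases with LPS.

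Il1r1 (Entrez gene 16177, chromosome 1, 40222480 to 40316201, plus strand) was almost absent from resting B cells. The 3 resting WT libraries held 2, 15 and 11 counts, which are 0.0217, 0.104 and 0.0947 RPKM, and the resting KO libraries held 7, 10 and 12. With anti-IgM the WT libraries stood above all of these at 4.92, 2.20 and 2.11 RPKM (699, 332 and 239 counts), and the KO libraries stood at 4.82, 1.78 and 1.72 RPKM. Replicate 1 was more than double the other 2 in both genotypes. With LPS the level was 0.0294 to 0.0755 RPKM in WT and 0.0200 to 0.0566 RPKM in KO cells, which overlapped the resting range. The log2 fold change with anti-IgM against resting was 5.27 ± 0.54 in WT and 5.11 ± 0.54 in KO cells, against counts of 2 to 15 per resting library. Without KO replicate 1 with anti-IgM the KO value was 4.47.

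Around Il1r1 on chromosome 1 lie other receptors of its family. Il1r2, the decoy receptor that binds IL-1 without signaling, lies 97.2 kb to the left and was also higher with anti-IgM. It stood at 4.43 ± 0.889 RPKM (SD, n = 3) in resting WT cells, 16.5 ± 1.55 with anti-IgM and 6.67 ± 0.88 with LPS, a log2 fold change with anti-IgM of 1.87 ± 0.13 (edgeR adjusted p = 3.31e-09) and of 1.91 in KO cells (edgeR adjusted p = 2.77e-09). In RPKM, which is per length, Il1r2 thus stood above Il1r1 in each condition. Il1rl2 and Il1rl1 on the right side reached at most 18 and 3 counts, too few to be tested.

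Of 32 other genes of IL-1 signaling (ligands, receptors, adaptors and kinases), 20 passed the filter on low counts. With anti-IgM, 2 were called higher (Il1r2 and Il1rn) and 2 lower (Sigirr and Irak3) in both genotypes, where 8.44% of all genes were called higher and 9.51% lower in both. Between the 2 stimuli, the ligand genes Il1b and Il1a took the other direction from the receptor. Il1rn did not, with a log2 fold change of LPS against anti-IgM of −0.36 ± 0.45 in WT cells (edgeR adjusted p = 0.598). Il1b was at 0.689 ± 0.349 RPKM in resting WT cells, 0.453 ± 0.116 with anti-IgM and 4.84 ± 2.47 with LPS, and it was higher with LPS than with anti-IgM by 3.49 ± 0.43 in WT (edgeR adjusted p = 6.61e-06) and 2.93 ± 0.41 in KO cells (edgeR adjusted p = 2.99e-05). Il1a was higher with LPS than with anti-IgM by 3.43 ± 0.54 in WT (edgeR adjusted p = 8.28e-05) and 2.20 ± 0.55 in KO cells (edgeR adjusted p = 0.0056), at 0.946 ± 0.582 RPKM with LPS in WT cells. Myd88, the shared adaptor of IL-1 receptors and TLR4, did not reach a call, with 27.7 ± 2.00 RPKM in resting WT cells, 32.3 ± 1.11 with anti-IgM and 36.1 ± 2.13 with LPS. The median log2 fold change of the 20 genes between LPS and anti-IgM in WT cells was 0.158, against 0.00221 over all genes tested.

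Spp1 (Entrez gene 20750, chromosome 5, 104435111 to 104441053, plus strand) separated the 3 conditions in both directions. In resting cells the libraries stood at 1.55, 1.68 and 1.91 RPKM in WT and at 1.87, 3.17 and 2.68 RPKM in KO. With anti-IgM they stood at 47.7, 46.8 and 33.2 RPKM in WT and at 68.3, 67.2 and 81.7 RPKM in KO. With LPS they stood at 0.491, 0.613 and 0.511 RPKM in WT and at 0.608, 0.477 and 0.883 RPKM in KO, below each resting library. The log2 fold change against resting was 4.62 ± 0.19 with anti-IgM and −1.60 ± 0.26 with LPS in WT cells, and 4.78 ± 0.18 and −1.97 ± 0.26 in KO cells. Spp1 was the only one of the 5 genes whose responses to the 2 stimuli had opposite signs and were both beyond 1 on the log2 scale in both genotypes.

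Entrez gene 100503439, which has no symbol in the tables used here, followed Spp1 in each library, with counts equal to 40.0% to 50.0% of those of Spp1 and almost the same RPKM (42.3 on average with anti-IgM in WT cells, where Spp1 had 42.5). Whether the pair shares reads is not given in the sources used here, so the Spp1 level carries that uncertainty. The neighbours of Spp1 on the left, Ibsp and Mepe, which encode bone matrix proteins related to osteopontin, had 0 counts in each library, and Pkd2, 12.9 kb to the right, reached at most 4 counts. Macrophages are a known source of osteopontin. The summed CPM of 10 macrophage and monocyte markers was 22.5 to 45.7 in resting cells of both genotypes, 12.3 to 18.5 with anti-IgM and 10.6 to 18.5 with LPS, and most of it came from Adgre1 and Lyz2, while Cd14, C1qa, C1qb, C1qc, Marco and Mrc1 did not pass 20 counts in any library. The part of this list in the Spp1 result was not tested.

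Receptors of osteopontin did not share one pattern. CD44, the hyaluronan and osteopontin receptor, had 17.8 ± 2.31 RPKM in resting WT cells, 25.2 ± 5.68 with anti-IgM and 76.1 ± 13.6 with LPS, and was higher with LPS than with anti-IgM by 1.67 ± 0.18 (edgeR adjusted p = 1.72e-06). The αv integrin subunit (Itgav) went the other way, with 14.5 ± 0.942 RPKM at rest, 37.4 ± 2.83 with anti-IgM and 10.6 ± 2.13 with LPS, and was lower with LPS than with anti-IgM by a log2 fold change of −1.75 ± 0.13 (edgeR adjusted p = 1.86e-08). The α9 subunit (Itga9) had 0.196 ± 0.037 RPKM at rest, 2.72 ± 0.753 with anti-IgM and 0.144 ± 0.0455 with LPS, a log2 fold change between the stimuli of −4.18 ± 0.31 (edgeR adjusted p = 1.53e-08).

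The α4 subunit (Itga4), which mediates adhesion of lymphocytes to VCAM-1, fell with anti-IgM from 35.8 ± 5.58 to 7.47 ± 0.521 RPKM and stood at 24.2 ± 3.57 RPKM with LPS. The β3 subunit (Itgb3), the partner of αv in the vitronectin receptor, fell likewise from 11.2 ± 1.54 to 2.25 ± 0.615 RPKM with anti-IgM. Both were higher with LPS than with anti-IgM, by 1.77 ± 0.12 (edgeR adjusted p = 7.11e-09) and 1.80 ± 0.18 (edgeR adjusted p = 5.59e-07). The β1 subunit (Itgb1), the partner of α4 and α9, had 16.6 ± 0.62 RPKM at rest, 28.8 ± 2.07 with anti-IgM and 24.4 ± 1.75 with LPS, and did not reach the call. With anti-IgM the genes for α9 and αv thus rose while those for α4 and β3 fell, in both genotypes. Of 21 other genes of osteopontin, its relatives, receptors and modifying enzymes, 10 passed the filter, and between LPS and anti-IgM 3 were called higher and 2 lower in both genotypes. Across all genes 4.26% were called higher and 3.36% lower in both.

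**Figure D2:**
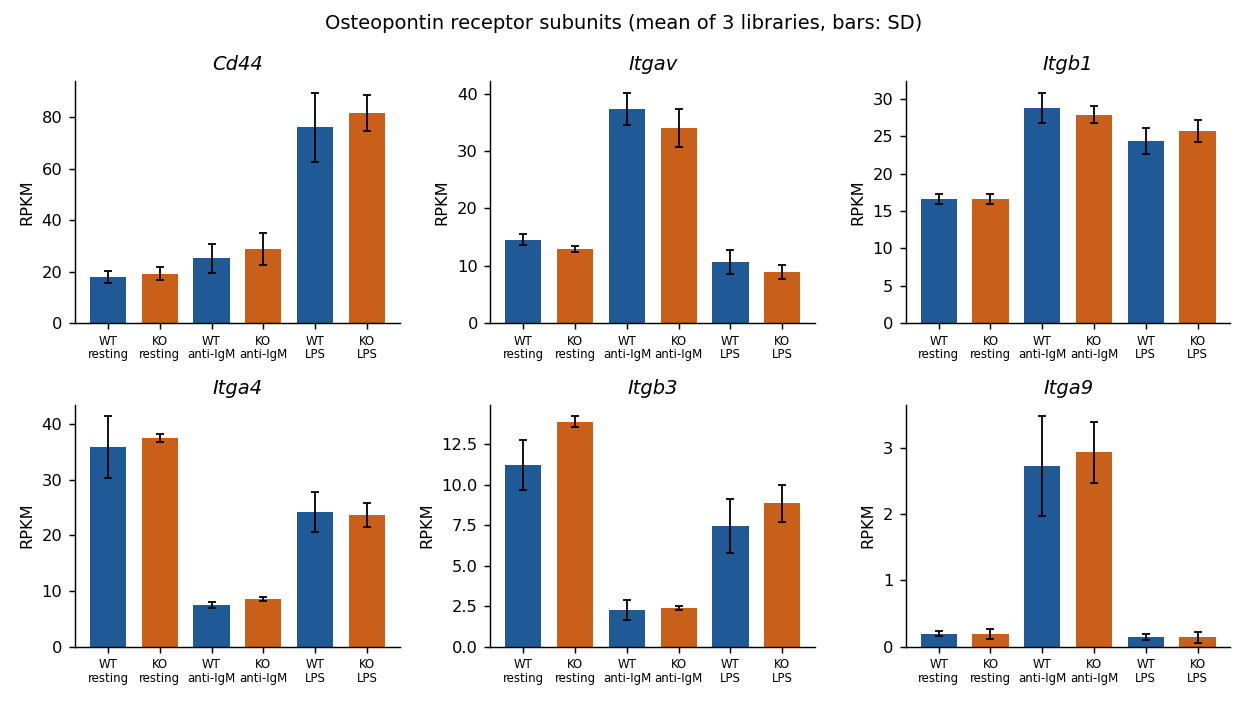
Mean RPKM of 3 libraries in each group for 6 subunits of osteopontin receptors, with bars for the SD. Itgav and Itga9 stand highest with anti-IgM, Cd44 with LPS, and Itga4 and Itgb3 lowest with anti-IgM.

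Plau (Entrez gene 18792, chromosome 14, 20836662 to 20843388) was as abundant as Spp1 after anti-IgM in WT cells. The WT libraries stood at 1.05, 2.93 and 2.79 RPKM at rest, at 26.9, 52.6 and 52.0 RPKM with anti-IgM and at 0.626, 2.04 and 2.02 RPKM with LPS. The KO libraries stood at 1.13, 1.80 and 1.62 RPKM at rest, at 25.2, 37.8 and 42.7 RPKM with anti-IgM and at 0.623, 1.27 and 1.27 RPKM with LPS. Each library with anti-IgM was above each other library, and the resting and LPS ranges overlapped. In pairs of equal replicate number, Plau was lower with LPS than at rest in each pair of both genotypes. The log2 differences were −0.696, −0.413 and −0.424 in WT and −0.786, −0.443 and −0.300 in KO cells. The log2 fold change with anti-IgM against resting was 4.23 ± 0.40 in WT and 4.51 ± 0.41 in KO cells, and with LPS −0.50 ± 0.43 and −0.44 ± 0.51.

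The receptor and regulators of urokinase took different directions. Plaur, the urokinase receptor that holds the protease at the cell surface, was at 18.2 ± 3.71 RPKM in resting WT cells, 11.8 ± 3.26 with anti-IgM and 6.25 ± 2.85 with LPS, and was called lower with LPS than in resting cells (log2 fold change −1.50 ± 0.25, edgeR adjusted p = 7.44e-05). S100a10, a plasminogen receptor subunit, fell with both stimuli, from 169 ± 27.5 RPKM to 62.9 ± 20.1 with anti-IgM and 74.1 ± 10.2 with LPS. The inhibitor gene Serpine2 was called higher with anti-IgM, by 1.26 ± 0.45 in WT (edgeR adjusted p = 0.0227) and 1.43 ± 0.48 in KO cells (edgeR adjusted p = 0.0155), at 1.75 ± 0.863 RPKM in WT. Serpinf2, the gene for the plasmin inhibitor α2-antiplasmin, was called higher with anti-IgM in WT cells (1.53 ± 0.45, edgeR adjusted p = 0.00662) and had 0.53 ± 0.43 in KO cells (edgeR adjusted p = 0.293), at no more than 29 counts in a library. Hpn, a membrane serine protease, was the one gene of this list called between LPS and anti-IgM in both genotypes, with at most 48 counts in a library. It was called higher with LPS, where 4.26% of all genes were called higher and 3.36% lower in both genotypes. Of 23 other genes of plasminogen activation 12 passed the filter, and their median log2 fold change with anti-IgM in WT cells was −0.246, against −0.00961 over all genes tested. The genes nearest to Plau, Camk2g on the left and Vcl on the right, had log2 fold changes of −0.0023 ± 0.098 and 0.23 ± 0.12 with anti-IgM in WT cells. Between LPS and anti-IgM in WT cells they had −0.50 ± 0.10 (edgeR adjusted p = 0.000728) and −0.80 ± 0.12 (edgeR adjusted p = 5.12e-05), the sign of Plau at a size short of the call.

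Cacna1i (Entrez gene 239556, chromosome 15, 80287238 to 80398292, plus strand) was a gene of resting B cells. The resting libraries stood at 19.1, 9.90 and 14.5 RPKM in WT and at 17.5, 12.4 and 17.5 RPKM in KO. With anti-IgM they stood at 0.500, 0.385 and 0.772 RPKM in WT and at 0.579, 0.462 and 0.863 RPKM in KO. With LPS they stood between, at 3.99, 2.26 and 4.73 RPKM in WT and at 4.49, 2.78 and 5.52 RPKM in KO. The 3 conditions did not overlap in either genotype. The log2 fold change against resting was −4.76 ± 0.38 with anti-IgM and −1.94 ± 0.32 with LPS in WT cells, and −4.69 ± 0.37 and −1.85 ± 0.32 in KO cells, so that the separation of the stimuli was one of degree and both had the same sign.

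Several other calcium channel genes were also lower with anti-IgM than in resting cells. Of 32 other genes for voltage-gated channel subunits and store-operated entry 16 passed the filter, and with anti-IgM 8 of them were called lower and 1 higher in both genotypes, where 9.51% and 8.44% of all genes were called in these directions. The 8 were Cacna1d, Cacna1e, Cacna1h, Cacnb1, Cacna2d2, Cacna2d4, Orai2 and Stim1, and Cacna1h encodes another T-type pore subunit. Cacna2d2 reached at most 22 counts in a library. Stim1, the calcium sensor of the endoplasmic reticulum, fell from 21.3 ± 0.848 to 9.43 ± 1.70 RPKM with anti-IgM in WT cells (log2 fold change −1.19 ± 0.13, edgeR adjusted p = 3.99e-07). Orai1, the pore of the store-operated channel that STIM1 opens after BCR crosslinking, was the 1 gene called higher, from 18.1 ± 3.29 to 62.9 ± 4.88 RPKM with anti-IgM (log2 fold change 1.78 ± 0.10, edgeR adjusted p = 7.95e-10) against 24.6 ± 2.75 RPKM with LPS. The related Orai2 fell with both stimuli, from 9.39 ± 3.03 to 4.20 ± 1.09 and 3.58 ± 1.09 RPKM. The median log2 fold change of the 16 genes with anti-IgM in WT cells was −0.864, against −0.00961 over all genes tested. Between LPS and anti-IgM, 0 of the 16 were called higher and 1, Orai1, was called lower in both genotypes. Across all genes 4.26% were called higher and 3.36% lower. With LPS against resting, Cacnb1, Cacnb4, Cacna2d4 and Orai2 were called lower in both genotypes and 0 higher. Taken by genotype, 4 of the 16 were called in WT and 6 in KO cells, all of them lower. In that comparison 15.8% of all genes in WT and 15.9% in KO cells were called in either direction.

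Genes beside Cacna1i on chromosome 15 went in different directions. Grap2, an adaptor gene 174.3 kb to the right, fell with anti-IgM by a log2 fold change of −2.22 ± 0.19 (edgeR adjusted p = 4.25e-08), and Enthd1, 53.4 kb to the right, rose by 1.65 ± 0.42 (edgeR adjusted p = 0.00261) at no more than 41 counts. Atf4 and Rps19bp1 on the left were higher by 0.93 ± 0.11 and 1.06 ± 0.08.

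Mgll (Entrez gene 23945, chromosome 6, 88724412 to 88828360, plus strand) was the 1 member that was high with LPS. The WT libraries stood at 0.671, 0.588 and 0.253 RPKM at rest, at 1.22, 0.714 and 0.663 RPKM with anti-IgM and at 10.3, 7.68 and 5.02 RPKM with LPS. The KO libraries stood at 0.527, 0.337 and 0.458 RPKM at rest, at 1.11, 0.845 and 1.02 RPKM with anti-IgM and at 9.50, 8.49 and 7.61 RPKM with LPS. Each LPS library was above each other library. The resting and anti-IgM ranges overlapped in WT and did not overlap in KO cells. In pairs of equal replicate number, Mgll was higher with anti-IgM than at rest in each pair of both genotypes. The log2 differences were 0.786, 0.296 and 1.326 in WT and 1.006, 1.255 and 1.113 in KO cells. The log2 fold change against resting was 4.00 ± 0.31 with LPS and 0.78 ± 0.34 with anti-IgM in WT cells, and 4.32 ± 0.31 and 1.14 ± 0.34 in KO cells.

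**Figure D3:**
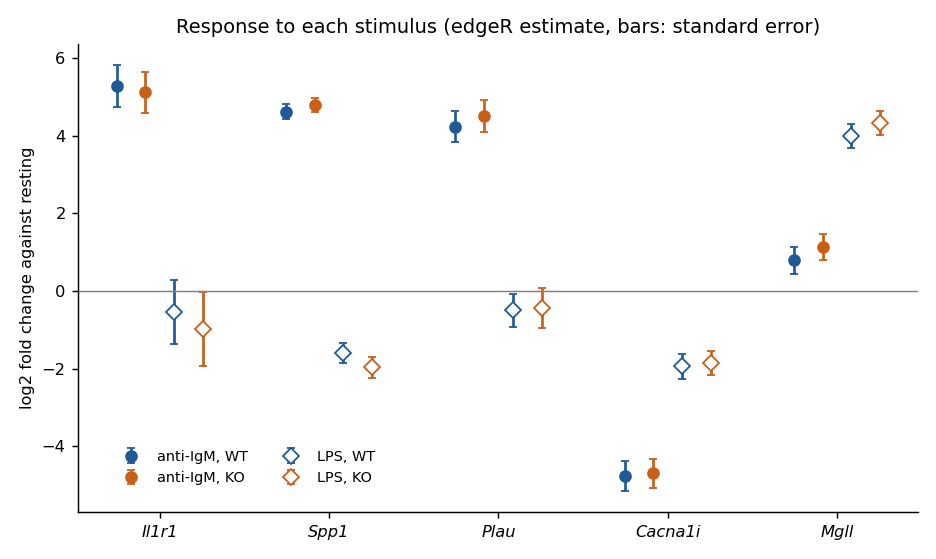
Log2 fold change against resting cells of the same genotype, estimated with edgeR, for anti-IgM (filled circles) and LPS (open diamonds), with bars for the standard error. Il1r1, Spp1 and Plau lie above 4 with anti-IgM and below 0 with LPS, Cacna1i lies below 0 with both, and Mgll lies at 4.00 and 4.32 with LPS.

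The sum of dendritic cell markers was also higher with LPS, through Flt3 and Zbtb46. The summed CPM of 6 such markers was 14.1 to 23.7 in resting libraries, 23.3 to 32.3 with anti-IgM and 42.2 to 73.0 with LPS in both genotypes together. Flt3 and Zbtb46 made up most of it, while Itgax was at 1.32 to 3.76 CPM with LPS against 2.24 to 5.93 CPM at rest and Siglech reached at most 7 counts in any library. The LPS and resting ranges of Xcr1 and Clec9a overlapped. The part of this list in the Mgll result was not tested.

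Other genes of the same lipid pathway were called in both directions between the stimuli. Of 27 other genes 23 passed the filter, and between LPS and anti-IgM 1 was called higher and 3 lower in both genotypes, where 4.26% of all genes were called higher and 3.36% lower. Ptgs2 (COX-2), which makes prostaglandins from the arachidonic acid that MGLL can release, was the 1 gene called higher, by 3.08 ± 0.40 in WT cells (edgeR adjusted p = 1.22e-05) and 2.47 ± 0.38 in KO cells (edgeR adjusted p = 8.52e-05), at 0.395 ± 0.0526 RPKM with LPS in WT cells. Dagla, which makes 2-arachidonoylglycerol, the lysophospholipid receptor gene Gpr55 and the fatty acid carrier gene Fabp5 were called lower with LPS than with anti-IgM.

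Fabp5 had 1.09 ± 0.254 RPKM at rest, 5.86 ± 1.53 with anti-IgM and 2.19 ± 0.422 with LPS in WT cells. Gpr55 had 1.01 ± 0.294, 2.97 ± 0.392 and 0.881 ± 0.0461 RPKM in the same order, and Dagla did not pass 23 counts in any library. Cnr2, the cannabinoid receptor of B cells, was at 41.8 ± 1.51 RPKM in resting WT cells, 14.4 ± 2.45 with anti-IgM and 27.2 ± 3.74 with LPS, and fell by 1.55 ± 0.10 on the log2 scale with anti-IgM (edgeR adjusted p = 2.8e-09). Faah, the hydrolase for anandamide, and Abhd12, another hydrolase for monoacylglycerols, went the opposite way to Mgll with LPS in WT cells. The log2 fold change of Faah with LPS was −1.001 ± 0.126 (edgeR adjusted p = 3.74e-06), just past the call. That of Abhd12 was −0.86 ± 0.10 (edgeR adjusted p = 9.21e-07), short of the call in size. Both genes also fell with anti-IgM in WT cells, short of the call in size. Faah had −0.59 ± 0.13 (edgeR adjusted p = 0.000538) and Abhd12 had −0.59 ± 0.10 (edgeR adjusted p = 3.79e-05).

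Between genotypes, Spp1 with anti-IgM was the largest difference relative to its error among the 5 genes. It was higher in KO cells by a log2 fold change of 0.76 ± 0.15, which is 1.69-fold, with no overlap between the 3 WT libraries (33.2 to 47.7 RPKM) and the 3 KO libraries (67.2 to 81.7 RPKM). The unadjusted edgeR p was 8.4e-05 and the adjusted p over all genes was 0.0743, above the threshold of 0.05 that 0.0989% of genes passed. Paired by replicate number, KO exceeded WT in 3 of 3 pairs, by log2 differences of 0.498, 0.505 and 1.31. With the replicate number as a block the difference was 0.76 ± 0.13 and the edgeR adjusted p was 0.00779, and limma with voom, DESeq2 and a weaker count filter, none of them paired, also put it below 0.05, so the call depended on the test, the filter and the pairing. Entrez gene 100503439, which may share reads with Spp1, had 31.3 to 49.8 RPKM in WT and 64.0 to 77.9 RPKM in KO cells with anti-IgM.

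In resting cells Spp1 was at 1.71 ± 0.184 RPKM in WT and 2.57 ± 0.659 RPKM in KO cells (log2 fold change 0.60 ± 0.22, edgeR adjusted p = 0.947). KO was higher in 3 of 3 pairs of equal number, by 0.236, 0.937 and 0.499. Resting WT and KO libraries of equal number are not clearly paired. Across genes, their deviations from the group means correlated at 0.0826 at the least, under the limit of 0.1 set for pairing. With LPS the levels were 0.538 ± 0.0651 and 0.656 ± 0.207 RPKM (0.23 ± 0.32, edgeR adjusted p of 1.0), and 2 of 3 pairs had the higher value in KO. The change of Spp1 with anti-IgM itself differed between genotypes by only 0.16 ± 0.27 on the log2 scale (edgeR interaction term, adjusted p of 1.0). The summed macrophage and monocyte markers with anti-IgM lay at 12.3 to 18.5 CPM in WT and 13.5 to 15.9 CPM in KO cells.

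**Figure D4:**
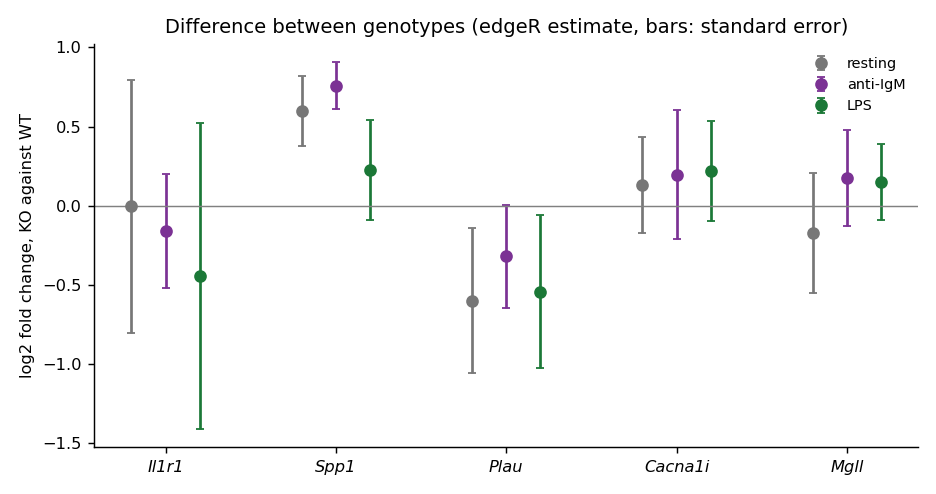
Log2 fold change of KO against WT cells in each condition for the 5 genes, estimated with edgeR, with bars for the standard error. Spp1 with anti-IgM lies at 0.76, farthest from 0 relative to its bar.

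None of the other 4 genes passed the threshold between genotypes, with or without the replicate block. Plau was lower in KO cells on average in each condition, by log2 fold changes of −0.60 ± 0.46 at rest, −0.32 ± 0.32 with anti-IgM and −0.54 ± 0.48 with LPS, and its groups overlapped each time. In pairs of equal number Plau was lower in KO cells in 3 of 3 pairs with anti-IgM and in 3 of 3 with LPS, and with the replicate block these differences were −0.29 ± 0.097 (edgeR adjusted p = 0.225) and −0.55 ± 0.19 (edgeR adjusted p = 0.304). For Cacna1i the values were 0.13 ± 0.30, 0.20 ± 0.41 and 0.22 ± 0.31 in the same order. In pairs Cacna1i was higher in KO cells in 3 of 3 with anti-IgM, by 0.190, 0.241 and 0.173, and in 3 of 3 with LPS, by 0.159, 0.282 and 0.244, and with the block the edgeR adjusted p was 0.776 and 0.762. For Mgll they were −0.18 ± 0.38, 0.18 ± 0.30 and 0.15 ± 0.24. For Il1r1 they were −0.0043 ± 0.80, −0.16 ± 0.36 and −0.44 ± 0.97 with errors larger than the differences. In resting cells and with LPS, 0.0565% and 0.0424% of genes were called. Without the block, the edgeR adjusted p of these 4 genes was between 0.997 and 1.0 in all 3 conditions. No interaction term of the 5 genes passed in either stimulus, nor did that of any of the 14161 genes, where 140 genes for anti-IgM and 220 for LPS had an unadjusted edgeR p under 0.05. Both numbers are below the share of 0.05 that evenly spread p-values would give. The lack of a call in this test thus says little about small differences. The 5 genes had been chosen for large responses, and both interactions were also called for 0 genes with the replicate block. None of the other genes in the 5 lists was called between genotypes.

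For 3 of the 5 genes, 1 replicate number took the same extreme place in each group, while the order of the other 2 varied. Plau was lowest in replicate 1 in 6 of 6 groups. Mgll was highest in replicate 1 in 6 of 6 groups, and Cacna1i was lowest in replicate 2 in 6 of 6 groups. Il1r1 had replicate 1 highest in 3 groups and lowest in 3 groups, and Spp1 had no replicate in the same place in more than 3 groups. For Plau the pairs of equal number gave a change with anti-IgM of 4.58, 4.17 and 4.19 in WT cells on the log2 scale (SD 0.232). For Il1r1 the same pairs gave 7.06, 4.25 and 4.28 (SD 1.62), with 2 counts behind the resting value of the first pair.

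**Figure D5:**
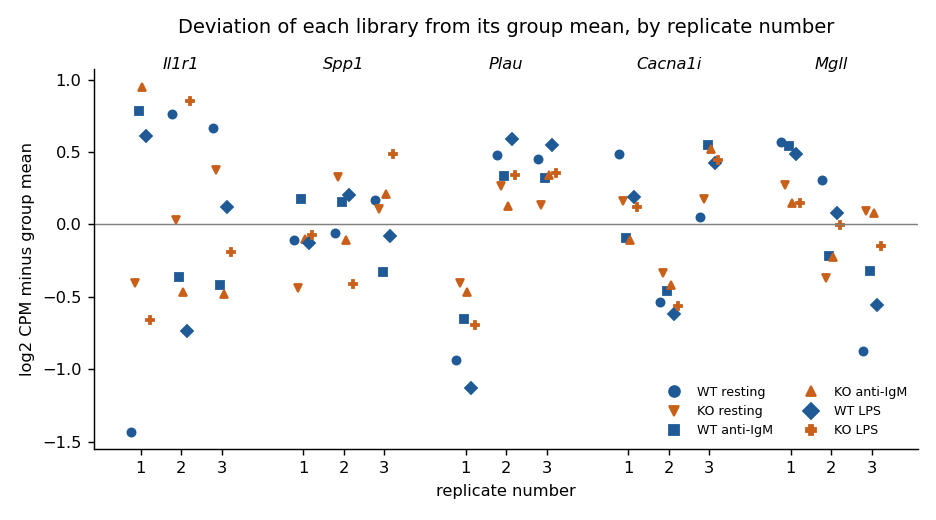
Deviation of the log2 CPM of each library from the mean of its group, by gene and replicate number, for the 6 groups. Plau lies below 0 in replicate 1, Cacna1i below 0 in replicate 2 and Mgll above 0 in replicate 1 in all 6 groups.

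The genes whose log2 CPM followed each member most closely over the 18 libraries are given as a description, since the points share stimulus groups and replicate numbers. Plau was closest to Fosl2, an AP-1 subunit gene, with Pearson's r of 0.991, then to Fyn, a Src family kinase gene (0.990), and Myof (0.990). Fosl2 had 1.03 RPKM at rest, 12.2 with anti-IgM and 0.919 with LPS in WT cells. Apart from Entrez gene 100503439 (0.9996), Spp1 was closest to Sh2d2a, a gene for an adaptor with an SH2 domain, and Prxl2a (both 0.990). Il1r1 was closest to Vps8 (0.982), Septin7 and Ddn (both 0.979).

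Cacna1i was closest to Rflnb (0.996), Trp53i11 (0.995) and Spi1 (0.994), which encodes the transcription factor PU.1. Spi1 had 93.0 RPKM at rest, 38.4 with anti-IgM and 62.9 with LPS in WT cells. Mgll was closest to Plxnd1 (0.987), a semaphorin receptor gene with 5.57, 7.96 and 47.3 RPKM in the same order, to BC035044 (0.987) and to Sytl3 (0.986). By Spearman's rank correlation, between 0 and 2 of each set of 3 genes stayed among the closest 3.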

How the data were processed

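Per the labels and the study's methods, RNA from splenic B cells was made into TruSeq v2 libraries, which do not mark strand, and sequenced as single-end reads of 50 bases. After alignment to GRCm38 with GSNAP, the authors deposited for 28096 Entrez genes in 18 libraries, raw counts over exons and RPKM. The counting program and its rule for reads that match several genes are not given in the sources used here. Where a label had no replicate number, the number 1 was given by elimination.

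Symbols, positions and promoters came from RefSeq (GRCm38.p6), which named 89.1% of genes. Deposited RPKM values are printed as levels. Counts were tested with edgeR 4.0.16 (R 4.3.3), using TMM factors, filterByExpr, which left 14161 genes, 6 group terms over all libraries and the quasi-likelihood test. The Benjamini-Hochberg adjustment ran over all 14161 genes, and the standard error is the log2 fold change divided by the root of F. A call between genotypes needed an adjusted p under 0.05, and a call between stimuli also a log2 fold change beyond 1. The study's limma models have no block for the replicate number, and neither has the main model here. Genes at 2 to 15 counts per library, such as Il1r1 at rest, are limited by counting error. The script recovered known changes in simulated counts. These counts were drawn without a replicate effect and with changes only in KO cells with anti-IgM. The check therefore does not cover the replicate pattern of the real libraries. No pair of replicates agreed within sampling noise (chi-square per degree of freedom 8.15 to 33.1).

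Pairing by number was checked by the correlation, across genes, of deviations from the group means. Libraries with the same number gave 0.388, 0.211 and 0.205 between WT and KO cells with anti-IgM and 0.319, 0.315 and 0.253 with LPS. They gave 0.228 or more between stimuli within a genotype, and 0.0826 at the least between resting WT and KO cells, which is under the limit of 0.1 set for pairing.

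The 5 genes and the gene lists were chosen with earlier results of these data known. Named genes are the 5, the genes of each list called between LPS and anti-IgM in both genotypes or among the 4 most abundant, the 2 nearest protein-coding genes on each side, the 3 closest by correlation, and those ranked next to a member. Il1rn, Sigirr, Irak3, Serpine2, Serpinf2, Faah, Abhd12 and the calcium channel genes other than Orai1, Orai2 and Stim1 were named after their values were seen. Alternatives were limma 3.58.1 with voom, DESeq2 1.42.0, RLE normalization, other count filters, a block for the replicate number, a fit of only the groups compared, the study's thresholds and leaving out each library. Marker lists of granulocytes (at most 1.23 summed CPM), NK cells (at most 4.75), erythroid cells (at most 5.77) and platelets (at most 8.37) were low throughout. That of T cells (39.4 to 71.9) came mostly from Cd247. That of stroma and endothelium (29.8 to 268) came mostly from Pecam1, and that of plasma cells (650 to 2500) mostly from Irf4 in stimulated cells. In resting WT cells Irf4 was at 383 to 422 CPM of a sum of 737 to 1010, with Jchain at 158 to 390 CPM. The level of 1 macrophage marker is not reported here on its own.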

Additional observations from a re-analysis of the deposited data

How the results depend on the processing

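For Spp1 between genotypes with anti-IgM, the direction held in all 13 alternatives, with log2 fold changes of 0.61 to 0.84, and 4 of them passed the threshold of 0.05. These were limma with voom (0.77, adjusted p = 0.0156), DESeq2 (0.75, adjusted p = 0.00585), no filter beyond a total of 1 count (0.76, adjusted p = 0.0349) and the replicate block (0.76, adjusted p = 0.00779). Leaving out 1 library gave edgeR adjusted p-values of 0.0933 to 0.37, with fewer libraries in the fit. The cause of the other changes was not tested. The replicate block changed no other call for the 5 genes.

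The counts of genes called between genotypes were 8, 14 and 6 (resting, anti-IgM, LPS). They became 49, 94 and 125 with the replicate block, 32, 47 and 51 with DESeq2, and 5, 2 and 2 with only the groups compared. Leaving out 1 library gave 2 to 11, 2 to 10 and 2 to 37, with 37 without WT replicate 2 with LPS, which also gave 10 in place of 0 genes for the interaction with LPS (range 0 to 10). At the study's thresholds (log2 fold change beyond 2 and adjusted p under 0.001) the calls were 532 and 516 for anti-IgM, 255 and 247 for LPS and 355 and 317 between the stimuli, in WT and KO cells.

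Differences between genotypes near 0 changed sign. Il1r1 in resting cells became 0.18 with limma, 0.040 with DESeq2 and 0.0047 with only the groups compared. Ranges with 1 library left out were −0.35 to 0.31 for Il1r1, −0.099 to 0.38 for Cacna1i and −0.51 to 0.035 for Mgll in resting cells. With anti-IgM they were −0.82 to 0.35 for Il1r1 and −0.082 to 0.49 for Cacna1i, and with LPS −0.048 to 0.46 for Spp1, −0.035 to 0.46 for Cacna1i and −0.081 to 0.42 for Mgll. For the difference of the anti-IgM responses they were −0.81 to 0.35 for Il1r1, −0.015 to 0.34 for Spp1 and −0.20 to 0.37 for Cacna1i, and for that of the LPS responses −0.31 to 0.36 for Plau and −0.17 to 0.33 for Cacna1i. None of these passed the threshold. Il1r1 in KO cells ranged from 4.47 to 5.37 with anti-IgM and from −1.62 to −0.74 with LPS against resting, at 2 to 12 counts in the resting and LPS libraries. Among the named list genes, Dagla in WT cells and Il1a in KO cells each lost the call between LPS and anti-IgM when 1 library was left out (adjusted p = 0.0569 and 0.0523).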
